A study of Mus musculus with 9 samples.

Results

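The nerves of mice in which Cre could delete 1 of the Tardbp alleles in Cnp-expressing cells were compared with nerves of mice that carried floxed alleles and no Cre. The libraries were chosen by their sample titles, 3 titled cHet and 3 titled Control, and made up 6 of the 9 sciatic nerve libraries sequenced by the authors. Each library came from 1 mouse aged 21 days on a C57BL6 background, with 2 females and 1 male in each group. The control mice were Tardbp-fl/fl and the cHet mice carried Cnp-Cre and Tardbp-fl/+, so that both groups had floxed alleles, 2 in the control mice and 1 in the cHet mice. Cnp-Cre is a Cre recombinase placed in the Cnp gene and is active in Schwann cells and oligodendrocytes. Whether other cells of these nerves were recombined was not measured here. No group of the series had the Cre without a floxed allele, so that effects of the Cre insertion and of the Tardbp deletion cannot be told apart. The genotype field of 1 cHet library, cHet 1 below, gave Tardbp-fl/fl in place of the genotype in its title, the fields of 2 cKO libraries gave Tardbp-fl/+, and the groups used here follow the titles. The 3 cKO libraries came from mice titled as homozygous conditional knockouts with the same Cre, aged 21 days as well, 2 females and 1 male, and their values are set beside the others without a test.

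TDP-43, the product of Tardbp, is an RNA-binding protein of the nucleus that controls the splicing and stability of many transcripts and regulates the amount of its own mRNA. Schwann cells wrap the axons of peripheral nerves in myelin, a membrane that is rich in cholesterol and in a few abundant proteins such as PMP22 and MBP. Myelin is separated by nodes of Ranvier, beside which the glial form of neurofascin (Nfasc) anchors the membrane to the axon. The mRNA of a nerve also comes from fibroblasts, perineurial cells, vessels, blood and immune cells and the fat of the epineurium.

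Values are the authors' normalized TPM (a transcript abundance corrected for transcript length and library size, scaled further between libraries), and fold changes are differences of log2(value + 0.5) from limma. The markers of Schwann cells were high in the 6 libraries, with Pmp22 between 23581 and 31123 and Sox10 between 228 and 530. Some libraries stood apart for other tissues. The skeletal muscle list had a level 6.17 log2 units above the median of the 6 libraries in control 1, where Acta1, the actin of skeletal muscle, was 3134 against 0.907 to 54.3 in the other libraries. The neuron list stood 4.04 above the median in control 2 and 2.91 above it in cHet 1. Avil, an actin-binding protein of sensory neurons, was 95.1 in control 2 and 42.2 in cHet 1 and at most 6.52 in the others. Adipocyte genes were high in control 1 and control 3. Pearson's r over the log2 values was 0.896 to 0.939 between control libraries, 0.944 to 0.975 between cHet libraries and 0.926 to 0.971 between the groups. Values without these libraries are given for the lists whose levels followed them.

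Of 15070 genes with a mean of at least 1, no gene (0%) passed an adjusted p of 0.05 in limma, and the smallest adjusted p was 0.9999. At an unadjusted p under 0.05 stood 397 genes, of which 102 (0.677%) were higher and 295 (1.96%) lower in cHet nerves. These are fewer than the 753.5 that a share of 0.05 would give. The split by direction depended on the scaling between libraries. With the values of each library rescaled to the same sum, 306 genes were higher and 131 lower, and with quantile normalization 192 were higher and 134 lower. Leaving out 1 library gave 86 to 260 higher and 117 to 454 lower genes, with the most higher genes without control 1 and the most lower genes without control 3. In 411 genes (2.73%) each cHet library exceeded every control library, and in 664 genes (4.41%) each lay below every control library. The median fold change over all genes was -0.03 (log2), the median standard error 0.17 and the median half-width of the 95% interval 0.42. An interval of less than 1 to either side was reached for 86.5% of the genes. No test of sex by genotype passed (limma, 266 genes at an unadjusted p under 0.05). With 1 male per group the males had no replicate, so that this test could detect little.

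The targeted gene was close to its control level. Tardbp (ENSMUSG00000041459, GRCm38 chr4:148612382-148627019, minus strand) was 185, 194 and 217 in the control libraries and 177, 179 and 186 in the cHet libraries. The groups overlapped, since the highest cHet value lay just above the lowest control value. The cHet mean was 90.8% of control (181 ± 4.9 against 199 ± 16.5, SD, n = 3 each), with a log2 fold change of -0.14 and a 95% interval of -0.35 to 0.08 (adjusted p = 0.9999, limma). A two-sided exact permutation test gave p = 0.2, where 3 mice against 3 cannot give less than 0.1. In the cKO nerves, which share these controls, Tardbp was 103, 94.2 and 103. In bulk RNA, fewer cells of a type and less RNA per cell cannot be told apart, and the share of Tardbp mRNA from cells without Cre is not known here.

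Cnp, which encodes an enzyme of non-compact myelin and whose gene holds the Cre, had the lowest fold change of the myelin genes measured. Cnp (ENSMUSG00000006782, GRCm38 chr11:100574904-100591729, plus strand) was 1168, 1267 and 1700 in the control libraries and 640, 849 and 803 in the cHet libraries. The groups did not overlap. The cHet mean was 55.4% of control (764 ± 110 against 1379 ± 283, SD, n = 3 each), a log2 fold change of -0.84 with an interval of -1.28 to -0.40. The unadjusted p was 0.00315 and the adjusted p 0.9999 (limma), and the exact permutation test reached its smallest p of 0.1. Cnp was 554, 799 and 498 in the cKO nerves, which carry the same Cre. With cHet 1 counted by its genotype field among the controls, the fold change was -0.45. The 250 bases before the Cnp start are shown because they precede the transcript that is lower here, with sequence from RefSeq (GRCm38.p6), 5′ to 3′. The start is that of RefSeq and lies inside the GENCODE interval given above, so that the last bases shown fall within that interval. They hold neither of the motifs described below.

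Cnp, chr11:100574689-100574938, plus strand: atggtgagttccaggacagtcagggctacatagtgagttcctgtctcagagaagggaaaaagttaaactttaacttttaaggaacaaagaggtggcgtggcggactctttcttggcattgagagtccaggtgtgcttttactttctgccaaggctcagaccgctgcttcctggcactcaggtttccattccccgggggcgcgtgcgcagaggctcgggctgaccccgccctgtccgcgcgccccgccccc

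Nfasc, the paranodal adhesion protein, was 111, 115 and 214 in the control libraries and 139, 165 and 156 in the cHet libraries. The cHet values lay within the range of the control values. The fold change was 0.13 with an interval of -0.49 to 0.75 (adjusted p = 0.9999, limma; exact permutation p = 0.8). Nfasc (GRCm38 chr1:132564690-132741797, minus strand) was 103, 87.1 and 93.9 in the cKO nerves.

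**Figure D1:**
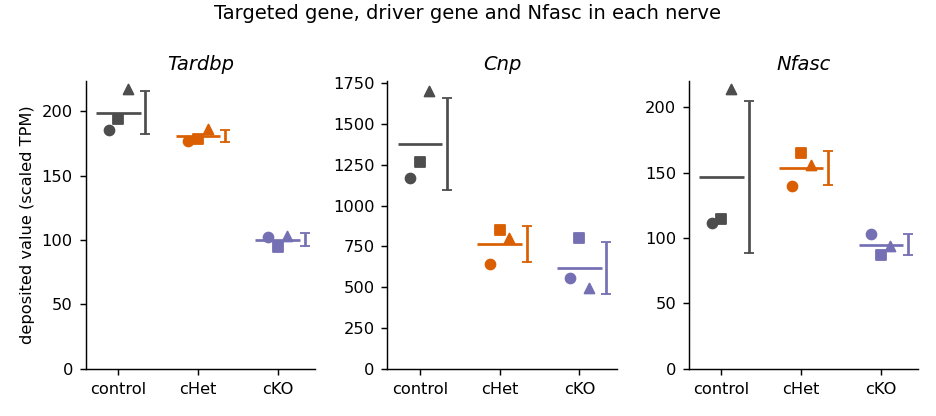
Deposited values (scaled TPM) of Tardbp, Cnp and Nfasc in each nerve, with 3 mice per group as points, the group mean as a line and the SD as a bar. The cHet points of Tardbp and Nfasc overlap the control points, while the 3 cHet points of Cnp, 640 to 849, lie below the 3 control points, 1168 to 1700.

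The other myelin genes were at control level or slightly above. Of 21 measured besides Cnp, 15 had a positive and 6 a negative fold change, with a median of 0.06 and a range of -0.10 to 0.22. None of the 21 passed the test. Pmp22, a membrane protein of compact myelin, was 25655, 25739 and 29884 in the control libraries and 23581, 31123 and 30404 in the cHet libraries. The groups overlapped, and the fold change was 0.06 with an interval of -0.48 to 0.59. Mbp had a fold change of 0.04 (-0.50 to 0.57) and Mag, an adhesion protein of the innermost myelin layer, of 0.20 (-0.24 to 0.64). Cdh1, the E-cadherin of the autotypic junctions of Schwann cells, was the 1 gene of the list whose cHet values all exceeded the control values (44.7, 51.5 and 48 against 53.7, 60.5 and 54.3), against 2.73% of all genes. In the plot of the myelin genes Cnp is the 1 gene with an interval that does not include 0.

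**Figure D2:**
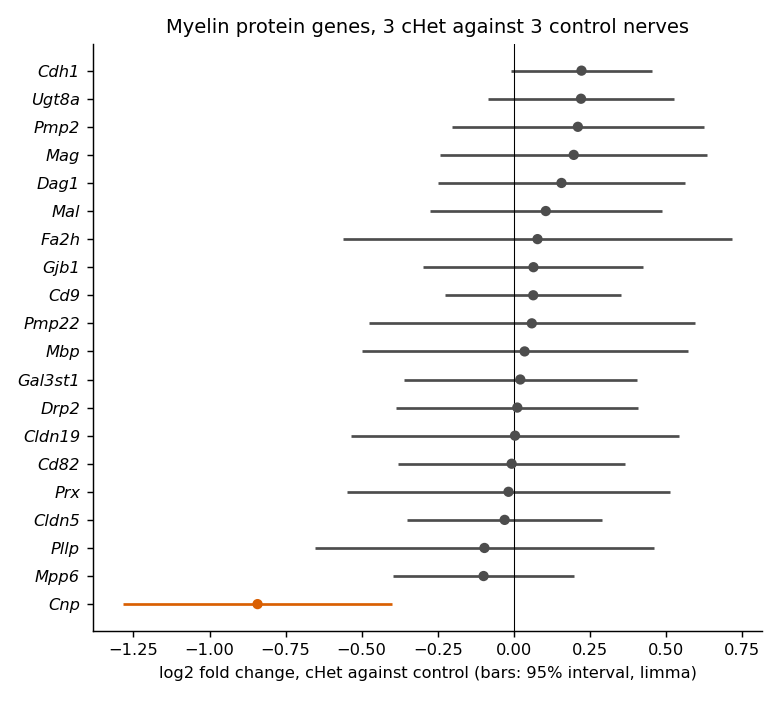
Log2 fold change of 20 of the 22 myelin protein genes, cHet against control (x axis), 1 gene per row, with the limma 95% interval over 3 mice per group as a bar. Cnp at -0.84 lies apart from the other genes plotted, which lie between -0.10 and 0.22 with bars that include 0.

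Other Schwann cell programmes gave no value apart from the spread. Of 16 transcription factors of myelinating Schwann cells, 8 were above and 8 below control, with a median of 0.00 and no member without overlap. Egr2, which drives myelin genes, was 27.8, 31.3 and 36.3 in the control libraries and 27.1, 40.5 and 40.4 in the cHet libraries. Markers of immature and repair Schwann cells had a median of -0.05 over 14 genes and Remak and precursor markers of 0.02 over 11 genes, again with no member without overlap. The 23 nodal and paranodal genes had a median of 0.02 and no member without overlap. Gldn, the glial matrix protein that gathers sodium channels at nodes, had a fold change of 0.20 (-0.15 to 0.55). The axonal partners of Nfasc followed the neuron-rich libraries. Cntn1 was 38.3 in control 2 and 15.8 in cHet 1, against 5.77 to 9.22 in the other 4 libraries.

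Transcripts that TDP-43 is known to regulate likewise had a median near control. Of 18 splicing targets measured at the gene level, 6 had a positive fold change, the median was -0.03 and none was without overlap. The median half-width of their intervals was 0.33, but the limits of single members reached -3.55 and 3.05, so that these were not shown to be near control. Stmn2 is also in the neuron list. Table values per gene do not show single exons, so that a cryptic exon could not be looked for. Of 22 hnRNP proteins and RNA-binding proteins of amyotrophic lateral sclerosis (ALS), 2 had cHet values above all controls (9.09%, against 2.73% of all genes). Atxn2, ataxin-2, was 95, 105 and 110 in the control libraries and 117, 133 and 136 in the cHet libraries, a fold change of 0.31 (SE 0.10, unadjusted p = 0.0181, adjusted p = 0.9999, limma). Tia1, a stress granule protein, had a fold change of 0.22 (SE 0.11).

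The nuclear genes of the mitochondrial respiratory chain lay on 1 side of 0 with 1 exception. Their products pass electrons from nutrients to oxygen (complexes I to IV) and make ATP (ATP synthase). This list was drawn up after the values had been seen, so that its counts describe these libraries and test nothing. Of 77 subunits measured, 76 had a negative fold change, with a median of -0.31, or 80.8% of control. Every cHet library lay below every control library for 23 subunits, 29.9% of the list against 4.41% of all genes tested. None passed the adjusted threshold. At an unadjusted p under 0.05 in limma, 26 of the 77 were lower, against 1.96% of all genes tested.

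The median was -0.31 for 36 subunits of complex I, -0.29 for 4 of complex II, -0.42 for 9 of complex III, -0.28 for 11 of complex IV and -0.30 for 17 of ATP synthase. Groups did not overlap for 12 subunits of complex I (33.3%), 2 of complex II (50%), 5 of complex III (55.6%), 1 of complex IV (9.09%) and 3 of ATP synthase (17.6%), against 4.41% of all genes. Uqcr11, a small subunit of complex III, had the smallest p of the list. Its values were 605, 651 and 614 in the control libraries and 491, 423 and 407 in the cHet libraries, which makes 70.7% of control (fold change -0.50, SE 0.10, unadjusted p = 0.0023). Cyc1, cytochrome c1 of the same complex, was 119, 91.9 and 88.7 in the control libraries and 72.7, 62 and 67 in the cHet libraries (fold change -0.56, SE 0.14). The control values of Cyc1 differed more than the cHet values, and all 3 stood higher. Cox4i1, which joins early in the assembly of complex IV, was 856, 925 and 885 against 725, 693 and 621 (-0.39, SE 0.10). Atp5b, the catalytic subunit of ATP synthase, was 1326, 1066 and 1161 against 945, 795 and 792 (-0.49, SE 0.13). In complex I, Ndufb5 was 196, 169 and 160 against 140, 131 and 129 (-0.38, SE 0.10). Sdhb of complex II was 163, 129 and 112 against 112, 88.6 and 87.1, where the lowest control library and the highest cHet library nearly met. The 1 subunit with a positive fold change was Atp5g2 (0.23, SE 0.34), whose values overlapped.

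Promoters are shown for 2 of these subunits, each holding a motif described below, so that they do not stand for the promoters of the whole list. They run from 250 bases before the start to the base before it, 5′ to 3′, from RefSeq (GRCm38.p6). For both, as for Cnp, the RefSeq start lies inside the gene interval of GENCODE. The capitals mark CCGGAAG, the core of sites bound by ETS factors such as GABP, and GCGCATGC or its reverse complement GCATGCGC, the core of the site of nuclear respiratory factor 1.

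Uqcr11, chr10:80406822-80407071, minus strand: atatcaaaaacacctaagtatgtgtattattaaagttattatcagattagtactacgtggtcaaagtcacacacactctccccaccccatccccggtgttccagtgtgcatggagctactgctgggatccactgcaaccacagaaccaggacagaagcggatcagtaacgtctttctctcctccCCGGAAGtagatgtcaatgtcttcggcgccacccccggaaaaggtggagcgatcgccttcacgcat
Sdhb, chr4:140961021-140961270, plus strand: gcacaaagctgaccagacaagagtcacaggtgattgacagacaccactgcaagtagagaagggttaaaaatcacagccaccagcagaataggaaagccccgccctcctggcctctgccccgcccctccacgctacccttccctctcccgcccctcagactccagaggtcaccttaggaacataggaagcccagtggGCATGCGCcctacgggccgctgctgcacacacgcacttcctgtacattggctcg

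The ETS core lay 66 bases before the start of Uqcr11 and the NRF1 core 54 bases before the start of Sdhb. RefSeq promoters were found for 62 of the 77 subunits. The NRF1 core was in 8 of their 67 promoters (11.9%) on either strand, against 2.26% of all 32851 promoters of the table and 3.96% of those of tested genes. The ETS core was in 12 (17.9%), against 6.91% of all and 12.2% of those of tested genes. The genes of the citric acid cycle and pyruvate dehydrogenase, a list described below, had 19 promoters. The NRF1 core was in 2 of these (10.5%) and the ETS core in 1 (5.26%). Both promoters with the NRF1 core belong to 1 of the 14 genes found (7.14%). Counted by gene, the NRF1 core was in 12.9% of the chain subunits found and in 4.75% of tested genes. A match of letters is a description and not a bound site. Of the mRNAs of 12 regulators themselves, among them Nrf1, Gabpa and Tfam, 9 were positive, with a median of 0.03 and a range of -0.40 to 0.21. The lowest was Ppargc1b, a coactivator, and it was the 1 of 12 (8.33%, against 4.41% of all genes) that was lower without overlap.

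The level of the chain list differed among libraries of a group. Its mean log2 level, relative to the median of the 6 libraries, was 0.35, 0.26 and -0.05 in controls 1 to 3 and 0.05, -0.19 and -0.23 in cHet 1 to 3. Control 3 lay below cHet 1, so that the groups overlapped for the list although 23 single subunits did not. The skeletal muscle list stood at 6.17 in control 1, the library with the highest chain level, at -0.49 and -0.93 in controls 2 and 3 and at -1.46, 1.10 and 0.49 in cHet 1 to 3, where the order was not that of the chain levels. Without control 1 the median was -0.24, with 76 of 77 negative and 25 subunits without overlap (32.5%, against 10.9% of all genes). Without control 3 it was -0.44, with 67 subunits without overlap (87%, against 11.1%), and without cHet 1 it was -0.39, with 55 (71.4%, against 11.6%). Without the libraries high in neuron markers it was -0.33, with 77 of 77 negative. Leaving out controls 1 and 3, in which fat genes were high, gave -0.40 against the 1 control left. Without the libraries high in neuron or muscle markers, which also leaves 1 control, it was -0.18, with 62 of 77 negative. The count of negative subunits was 76 under each of the 3 other scalings as well, with medians of -0.23, -0.30 and -0.20 and 17, 33 and 15 subunits without overlap, where 1.78%, 4.57% and 2.36% of all genes were lower without overlap. In the cKO nerves the level was -0.06, 0.35 and 0.23.

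**Figure D3:**
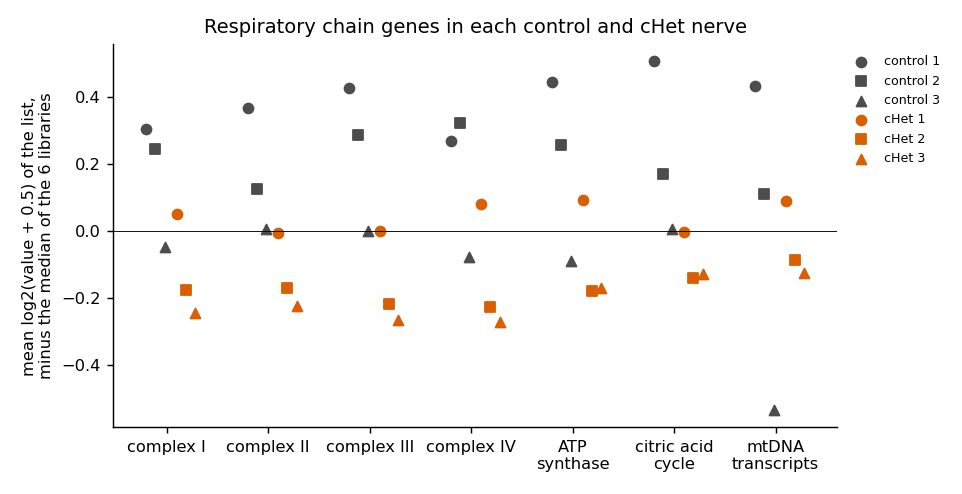
Mean log2(value + 0.5) of each gene list minus the median of the 6 libraries (y axis), for the respiratory complexes, the citric acid cycle and the transcripts of the mitochondrial genome (x axis), with 1 point per library. In each of the 5 complexes cHet 2 and cHet 3 lie below the 3 control libraries.

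Transcripts of the mitochondrial genome, which encode the other subunits of the same complexes, were not apart from control. Of 13, 4 were positive and 9 negative, the median was -0.06 and none was without overlap. mt-Co1 was 14941, 13797 and 9790 in the control libraries and 11914, 12023 and 11090 in the cHet libraries. Control 3 had the lowest level of this list as well, -0.54 against 0.43 and 0.11 in the other controls.

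Other genes of energy metabolism lay on the same side as the chain. These lists were also drawn up after the values had been seen. All 16 genes of the citric acid cycle and pyruvate dehydrogenase were negative, with a median of -0.33 and 7 without overlap (43.8%, against 4.41% of all genes). The levels of this list were 0.51, 0.17 and 0.004 in the control libraries and -0.004, -0.14 and -0.13 in the cHet libraries. Control 1, the library with muscle mRNA, was thus highest, and control 3 nearly met cHet 1. With 1 library left out the median lay between -0.45 and -0.17. Cs, citrate synthase, the enzyme that admits acetyl groups to the cycle, was 96.4, 68 and 73.2 in the control libraries and 58.1, 54.8 and 55.2 in the cHet libraries (fold change -0.48, SE 0.14). All 19 genes of fatty acid oxidation were negative, with a median of -0.27 and 7 without overlap (36.8%, against 4.41%). The levels of this list were 0.28, 0.02 and 0.28 in the control libraries and -0.02, -0.10 and -0.12 in the cHet libraries. They were thus highest in controls 1 and 3, where fat genes were high, and control 2 nearly met cHet 1. With 1 library left out this median lay between -0.34 and -0.17. Acadl, the dehydrogenase for long chains, was 76.1, 66.9 and 75.4 against 60.1, 53.6 and 48.7 (-0.43, SE 0.11). Glycolysis had 16 of 18 negative and a median of -0.28, or -0.26 without control 1. Its levels were 0.62, 0.39 and -0.07 in the control libraries and 0.07, -0.17 and -0.16 in the cHet libraries, so that control 3 lay below cHet 1. Aldoa, which muscle expresses at a high level, was 2300 in control 1, 822 and 603 in the other controls and 565 to 596 in the cHet libraries. Mitochondrial ribosomal proteins had a median of -0.18 (18 of 75 without overlap, 24%) and cytosolic ribosomal proteins of -0.17 (15 of 78, 19.2%), against 4.41% of all genes. In both lists the level of control 3 lay below that of cHet 1 (-0.03 against 0.03, and -0.001 against 0.001). Over the 19 other settings the medians lay between -0.24 and -0.11 for the mitochondrial and between -0.23 and -0.02 for the cytosolic list.

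Short transcripts as a class lay lower, and most chain subunits are short. With protein-coding genes in 5 bins of about equal size by the median length of their transcripts, the share lower without overlap was 6.72%, 5.71%, 4.6%, 2.96% and 1.92% from the shortest to the longest bin. Of the 77 subunits, 70 were in the 2 bins of shortest transcripts. Within the shortest bin 25.9% of the subunits were lower without overlap against 6.34% of the other genes, and within the next 31.2% against 5.56%. The part of transcript length in the result was not tested.

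Genes of cholesterol synthesis, which Schwann cells need for myelin membrane, lay on the other side of 0. All 21 measured members had a positive fold change, with a median of 0.20, or 115% of control, a range of 0.06 to 0.35 and 3 without overlap (14.3%, against 2.73% of all genes). None passed the adjusted threshold, and Lss alone had an unadjusted p under 0.05 in limma, where 0.677% of all genes were higher. Lss, lanosterol synthase, which closes the sterol rings, was 166, 154 and 127 in the control libraries and 172, 215 and 182 in the cHet libraries (fold change 0.35, SE 0.14). Dhcr7, which makes cholesterol in a last step, was 64.7, 58.5 and 47.7 against 66.1, 79.9 and 66.6 (0.32, SE 0.14). The levels of the list were 0.01, -0.01 and -0.14 in the control libraries and -0.02, 0.34 and 0.13 in the cHet libraries, so that cHet 1 was level with the controls. Without cHet 2 the median was 0.09, with 20 of 21 positive, and without the libraries high in neuron markers it was 0.33. All 21 were positive under the 3 other scalings too. The share of all genes higher without overlap was then 7.22% with rescaling to the same sum, 2.57% with median of ratios scaling and 4.48% with quantile normalization. In the cKO nerves the levels were -0.64, -0.53 and -0.83, below each of the 6 other libraries. The factors Srebf1 and Srebf2, which switch these genes on, had fold changes of -0.16 and 0.09.

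**Figure D4:**
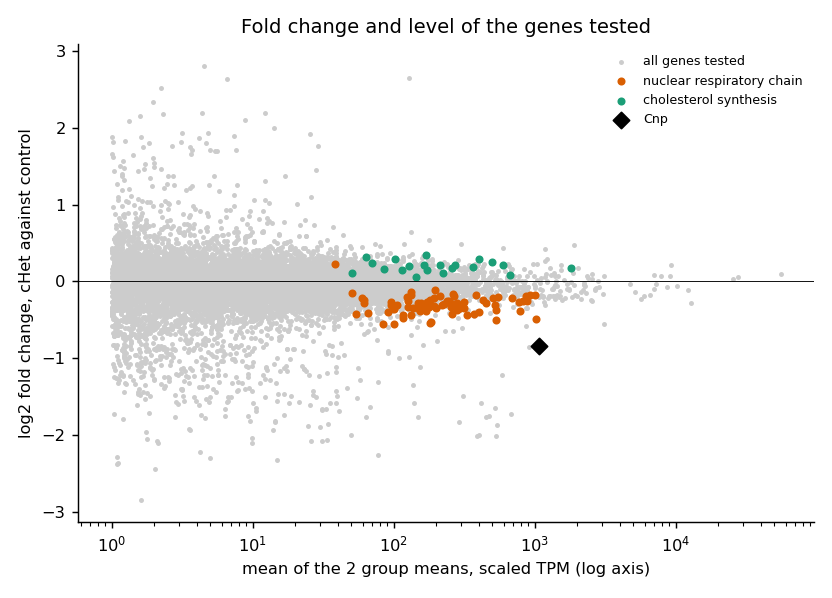
Log2 fold change, cHet against control (y axis), against the mean of both group means in scaled TPM (log x axis), for the 15070 genes tested (grey), 77 nuclear respiratory chain subunits (orange), 21 cholesterol synthesis genes (green) and Cnp (black). The orange points lie below 0 save 1, the green points above 0, and Cnp at -0.84 lies below most genes of its level.

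Several adipocyte lists had medians well below 0, and they followed single control libraries. Over 67 genes of 6 adipocyte lists the median was -0.65, with 8 without overlap (11.9%, against 4.41%). Adipoq, adiponectin, was 126, 4.12 and 193 in the control libraries and 25.3, 3.04 and 30.8 in the cHet libraries. Controls 1 and 3 were high and control 2 as low as cHet 2, so that the groups overlapped and the interval ran from -5.55 to 2.01. Lipid droplet proteins had a median of -1.45, lipolysis genes of -0.98, secreted proteins of -1.37, uptake and synthesis genes of -0.44, transcription factors of -0.20 and thermogenic genes of -0.29. Without controls 1 and 3 the median over the lists together was 0.11, and those of the single lists, in the same order, were 0.29, 0.07, 0.56, 0.09, 0.13 and -0.01. A few members were low in each cHet library, also against control 2. Bscl2, seipin, a protein of lipid droplet formation, was 48.1, 47.5 and 55.7 in the control libraries and 40.6, 38.2 and 38.9 in the cHet libraries (-0.35, SE 0.10). Fitm2, which also acts in droplet formation, was 14.1, 13.2 and 13.2 against 10.7, 10.2 and 10.2 (-0.36, SE 0.10). Pnpla3, a lipase of droplets, was 58.7, 31.2 and 23.2 against 20.3, 2.99 and 11.6 (-1.89, SE 0.68). Pde3b, which turns off lipolysis, was 5.84, 3.89 and 8.07 against 2.9, 1.87 and 3.34 (-0.98, SE 0.31).

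Lists for other cells of the nerve had no member without overlap, save 1 of 6 red blood cell genes (16.7%, against 2.73% of all genes higher). Macrophage genes had a median of -0.02 over 16 genes, endothelium of -0.00 over 12 and fibroblasts of 0.08 over 14. Perineurial markers had 11 of 12 positive and a median of 0.35, with a level of 0.90 in cHet 1, 0.35 in cHet 3 and -0.36 in cHet 2, the lowest of the 6. Mast and T cell genes had a median of -0.86 and were high in controls 1 and 3, without which it was 0.76. Red blood cell genes were positive in 6 of 6, with a median of 0.46. Their level was 0.61 in cHet 1, whereas cHet 2 and cHet 3, at -0.01 and 0.01, were level with control 1 at 0.01. Controls 2 and 3 stood at -0.40 and -0.23. Over the 19 other settings the median of the red blood cell genes lay between -0.04 and 0.60. Alas2, the first enzyme of haem synthesis in red cells, was 7.01, 7.41 and 6.42 against 13.1, 8.84 and 10.4 (0.58, SE 0.17). Neuron genes had a median of 0.15 and skeletal muscle genes of -1.65, and both changed sign when libraries were left out. The median of the neuron genes was -0.62 without control 1 and -0.92 without cHet 1, and 0.75 without the libraries high in neuron markers, and that of the muscle genes was 0.70 without control 1.

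**Figure D5:**
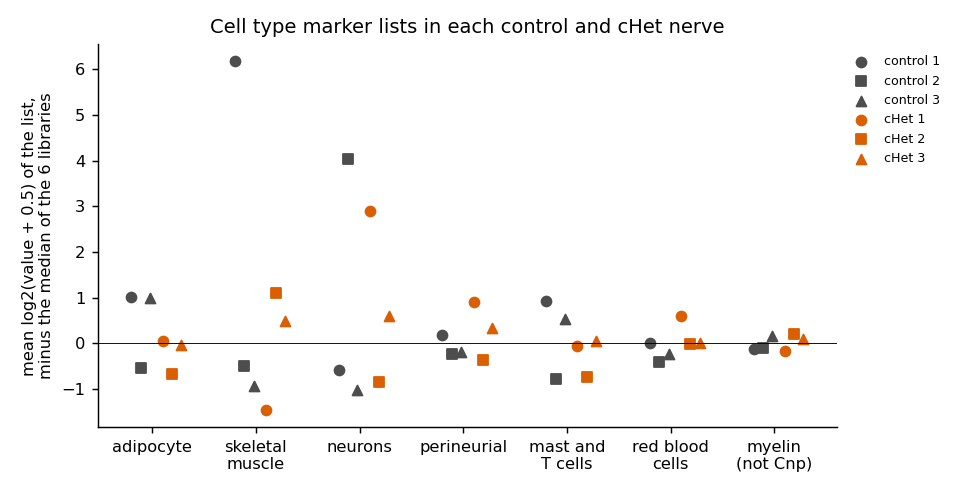
Mean log2(value + 0.5) of each marker list minus the median of the 6 libraries (y axis), for 7 lists (x axis), with 1 point per library. Muscle genes stand at 6.17 in control 1, neuron genes at 4.04 in control 2 and 2.91 in cHet 1, and adipocyte genes near 1 in controls 1 and 3, whereas myelin genes other than Cnp lie close to 0.

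Among single genes, those without overlap, with a mean of at least 5 and a fold change of at least 0.58 in size, numbered 23 higher and 38 lower in cHet nerves. Of these 14 and 7 were predicted genes, pseudogenes or genes without a symbol. Pde5a, the phosphodiesterase that degrades cyclic GMP, had the smallest p among those higher. It was 10.4, 9.15 and 8.7 in the control libraries and 18.9, 14.2 and 16.8 in the cHet libraries (0.78, SE 0.14, unadjusted p = 0.00125, adjusted p = 0.9999, limma). Hddc3 was 33.9, 34.1 and 35.3 against 59.6, 56.4 and 43.7 (0.61, SE 0.13). Sh3bp2, an adaptor protein of signalling, was 8.04, 6.17 and 7.51 against 11.4, 11.1 and 10.8 (0.59, SE 0.14). The others named by the rule were Ctrc (0.77), Fam228b (0.74), Cyb5rl (0.61), Dmxl1 (0.60), Alas2 and Ighj3, a joining segment of antibody heavy chains with 4.81, 0 and 1.73 against 10.2, 9.98 and 12.3.

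Cnp was 1 of 15 lower genes named by the rule, and Bnip3 had the smallest p among them. Bnip3, a mitophagy receptor of the outer mitochondrial membrane, was 106, 102 and 122 in the control libraries and 76.6, 64.6 and 77.9 in the cHet libraries (-0.59, SE 0.11, unadjusted p = 0.00174, adjusted p = 0.9999, limma). Chchd10, a mitochondrial protein in which mutations cause ALS, was 90.1, 34.7 and 47.5 against 30.1, 13.3 and 18.4 (-1.42, SE 0.42). Both Chchd10 and Coq8a (-0.998), which acts in the synthesis of coenzyme Q, were highest in control 1, the library with muscle mRNA. Mdh1, the cytosolic malate dehydrogenase, was 167, 206 and 153 against 133, 106 and 107 (-0.60, SE 0.15), and here control 2 was highest. Me3, the mitochondrial malic enzyme, had a fold change of -0.64, Dnajc15, a mitochondrial chaperone, of -0.65, and Clybl, a mitochondrial lyase, of -0.93. Cebpb, a transcription factor of fat cells and of inflammation, was 22.5, 17.9 and 36.2 against 11.9, 11.5 and 16.3 (-0.88, SE 0.28). Fcor, a corepressor of fat, was -1.76, Hhatl -1.40 and Cib2 -1.21. The other 3 were Cfap298 (-0.62), Hoxc9 (-0.60) and Tmem268 (-0.59).

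Near the recombined and the driver locus few genes stood out. Of the 50 nearest tested genes of Tardbp, 2 were higher and 3 lower without overlap, with a median of -0.04. Of the 50 nearest of Cnp, 3 were higher and 3 lower, with a median of -0.04. For Cnp this makes 6% in each direction, where 2.73% and 4.41% of all genes were higher and lower without overlap. The control libraries differed more among themselves than the cHet libraries, with a median SD of 0.228 against 0.163 on the log2 scale.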

How the data were processed

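RNA from the sciatic nerve of 1 mouse per library was sequenced by the authors. For 36121 genes the deposited table gives a normalized TPM per library, treated here as a signal. In the submitters' processing notes stand the build GRCm38 and the tools sleuth 0.30.0 and kallisto 0.44.0. Not given for this table in the sources used here are the annotation release, the strandedness and how libraries were scaled. The values summed to 971149 to 1023220 in the control libraries and to 934932 to 964186 in the cHet libraries, which plain TPM would not. Each cHet sum thus lay below every control sum. The depth is unknown, as TPM do not carry it, and so is the counting error of each value. No column of values was left unused. Columns were matched to samples by the mouse number in their titles, and symbols and positions came from GENCODE M21 by Ensembl identifier. Where strand is not known, antisense and overlapping genes may share reads, and copies such as Hba-a1 and Hba-a2 may split them.

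Genes that averaged 1 or more in the 6 libraries were tested as log2(value + 0.5), which understates fold changes of low genes, with limma 3.58.1 in R 4.3.3 (eBayes with a mean-variance trend) and Benjamini-Hochberg adjustment over 15070 genes. All adjusted p-values are from this fit. The script was tested on simulated data. The level of a list in a library is the mean log2 value of its tested members minus the median of the 6 libraries. The members and lists were chosen with earlier results of these data known, and 521 entries in 33 lists were set apart from 13 lists added after the values were seen. Named genes were Tardbp, Cnp and Nfasc, up to 15 genes in each direction with the smallest p among those without overlap, a mean of at least 5 and a fold change of at least 0.58 in size, and up to 6 genes per list, leaving out predicted genes and pseudogenes. Other genes named from lists, and the 3 added alternatives, were chosen after values were seen. Alternatives were other pseudocounts, filters, scalings, covariates, weights and groupings and the omission of libraries. A few members of the myelin and cholesterol lists are not reported here by name and are counted only within their lists.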

Additional observations from a re-analysis of the deposited data

How the results depend on the processing

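No gene passed the threshold in either direction under any of 19 other settings or of 3 further ones chosen after seeing the data, and the smallest adjusted p of any gene was then 0.153, without the mean-variance trend. The fold change of Tardbp was negative under each of the 19 settings and lay between -0.19 and -0.05 (adjusted p 0.908 to 1), and that of Cnp lay between -0.95 and -0.45 (adjusted p 0.903 to 1). When 1 library was left out, Tardbp lay between -0.19 and -0.07, Cnp between -0.95 and -0.68 and the median of the nuclear respiratory chain between -0.44 and -0.24. Over the 19 settings that median lay between -0.44 and -0.20. Counts of genes without overlap rise with fewer libraries by construction, to 953 to 1737 lower genes when 1 library was left out. In all, 1890 recomputed values kept their side of the threshold (single genes), or stayed within the spread between libraries (list medians) or within 1.5 times (counts). Another 90 in 27 results moved by more, none of them the median of the chain. A single gene, such as Tardbp or Cnp, was judged only by its side of the threshold. The size of its fold change was thus not part of this count. The cause was not tested. No paired analysis was possible because the labels share no mouse number between the groups and do not say which mice came from 1 litter. The array weights, covariates and scalings cannot replace mice, and 3 against 3 leaves many differences out of reach. The median interval of 0.42 to either side is for 1 gene at a time and is not adjusted for the number of genes. Larger differences could be missed as well, since none of the 344 genes with a fold change over 1 in size passed the adjusted threshold. Where 1 control library was left, it was assumed to vary like the others.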

Other observations

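Several lists of genes outside the myelin, energy and fat programmes were close to control in the cHet nerves, and no member of them passed the test. Collagens and laminins of the nerve matrix had 18 of 20 positive fold changes with a median of 0.12 and no member without overlap. Lama2, a laminin chain of the Schwann cell basal lamina, was 146, 135 and 145 in the control libraries and 146, 192 and 169 in the cHet libraries. Interferon response genes had 13 of 16 positive with a median of 0.11, and genes of cell division a median of -0.02 over 18. Targets of p53 had a median of -0.09 over 15 genes, and Bbc3, the pro-apoptotic protein PUMA, was 29.5, 30.7 and 38.6 in the control libraries and 26.5, 26.6 and 25 in the cHet libraries (log2 fold change -0.32, SE 0.12). Immediate early genes had 15 of 20 negative and a median of -0.09, with Dusp1, a phosphatase of MAP kinases, at 21.8, 18.5 and 25.8 against 17.5, 16.2 and 17.7. Clock genes had a median of 0.03 over 18 genes and genes of the stress hormone response of -0.01 over 14. Fkbp5, a target of the glucocorticoid receptor, was highest in the male of each group, 67 in control 3 and 54.6 in cHet 3, against 7.73 to 19.2 in the females. Pericyte and smooth muscle genes had a median of 0.05 over 12, oligodendrocyte markers of -0.13 over 6 and sex-linked genes of 0.03 over 4.

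The isoforms of complex IV that belong to muscle and other tissues differed by library. Cox6a2, the isoform of skeletal and heart muscle, was 202 in control 1 and at most 4.64 in the other libraries, and Cox8b was 351, 3.94 and 66.8 in the control libraries and 29.5, 3.01 and 8.41 in the cHet libraries. Cox7a1, found in muscle and brown fat, was 219, 80 and 74.6 against 65.3, 57.7 and 49, without overlap.

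In 4 genes, all processed pseudogenes or predicted genes, each cHet library was listed at 0 while each control library stood at 1 or more. Gm20693 (GRCm38 chr2:101570624-101570834, plus strand) was 4.12, 3.2 and 2.27 in the control libraries and was listed at 0 in the cHet and in the cKO libraries. Gm45754 was at 0 in the cKO libraries too, and Gm28118 was at 0.615 in cKO 1 and at 0 in the other cKO libraries. Gm13246 was at 2.04, 3.59 and 4.81 in the cKO libraries, so that the pattern was not shared by all 4. These genes reached the mean of 1 through the control libraries alone. No gene showed the opposite pattern.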
